A study of Mus musculus with 4 samples.

Results

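The high mobility group (HMG) chromatin proteins examined here are encoded by Hmgb1, Hmgb2, Hmgb3, Hmgn1 and Hmgn2, 5 of the 15002 genes counted in cells of mouse medulloblastoma, a tumour of the cerebellum. The genes were chosen by name because their levels across cell states were already known from these data, so those levels are given as a description and carry no test. HMGB proteins are abundant DNA-bending proteins with paired HMG boxes. HMGN proteins bind the nucleosome core itself and counteract the compaction brought about by linker histone H1. In the developing cerebellum, granule neuron progenitors divide before they mature into granule neurons, and SHH-type medulloblastoma arises from that lineage.

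The study profiled 4 tumours by Drop-seq, which tags each captured mRNA with a cell barcode and a unique molecular identifier (UMI). All were taken at postnatal day 16 from untreated mice that carried hGFAP-Cre and SmoM2 together with the floxed alleles Prkaa1fl/fl and Prkaa2fl/fl. SmoM2 is an activated Smoothened allele, hGFAP-Cre acts in glial and neural stem cells and their descendants, and Prkaa1 and Prkaa2 encode the catalytic subunits of AMP-activated protein kinase, so every tumour used here carried both floxed genes and the oncogene together. No sample with intact Prkaa1 and Prkaa2 is labelled, and the comparison with such controls was not analysed here. Cells outside the Cre lineage keep both genes.

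A total of 3222 barcodes had at least 500 UMIs, between 566 and 1083 per tumour, with 528971 to 1253618 UMIs per tumour, and no barcode was shared between libraries. Removal of 14 doublets left 3208 cells in 11 clusters. Prkaa1 had 3 to 16 UMIs per tumour and Prkaa2 5 to 13; these 3′ tags do not show whether the floxed exons were lost. The libraries fell into pairs: whole-tumour log2 levels correlated at r = 0.92 between tumours 1 and 2 and r = 0.93 between tumours 3 and 4 across 4176 genes, against 0.54 to 0.65 between the pairs. Mitochondrial genes took 12.1% and 12.7% of the UMIs of tumours 1 and 2 but 2.68% and 2.13% of those of tumours 3 and 4. The labels name no batch, so the member levels and ratios are given for each tumour or for each pair, and sums over all 4 tumours are named as such.

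Cell states were read from clusters built without any HMG gene. Clusters 3 and 6, with 818 cells, carried 23 and 11 genes of the G2/M list among their 50 leading genes and are called G2/M cells, and cluster 5, with 394 cells, carried 23 genes of the S-phase list. Clusters 2 and 4, with 948 cells, were granule neuron-like and are called neuronal. No cluster had the 4 progenitor markers among its 50 leading genes that the naming rule asks for. The non-dividing state is cluster 1, 649 cells led by genes such as Hes1 and the granule progenitor marker Atoh1, the list's 1 gene among its leading 50, whose summed G2/M list was 2348 CPM against 9197 over all cells. That name holds for mitosis only: its S-phase list was 5734 against 5666 over all cells, and when cells were called one by one from marker UMIs, 265 of the 649 were S and 74 were G2/M. A level is given below as CPM, the UMIs of a gene per 1000000 UMIs of all genes in the summed cells of 1 state in 1 tumour.

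The bases just upstream of the 5 genes are shown because motifs known from cell-cycle promoters can be looked for directly in them. The sequences are the bases before the RefSeq start site (GRCm38.p6), 5′ to 3′ on the coding strand, from a window of 150 bases. Bases that another annotated start of Hmgn1 or Hmgn2 places in its transcript are left off, which leaves 146 and 140. Capitals mark CCAAT, bound by the NF-Y factor, TTTGAA, the core of the cell-cycle homology region (CHR), and TTTAAA, each searched on both strands. Hmgb1 lies at chr5:149053058-149053207 (minus strand), Hmgb2 at chr8:57511693-57511842 (plus), Hmgb3 at chrX:71555767-71555916 (plus), Hmgn1 at chr16:96127730-96127875 (minus) and Hmgn2 at chr4:133968002-133968141 (minus).
Hmgb1: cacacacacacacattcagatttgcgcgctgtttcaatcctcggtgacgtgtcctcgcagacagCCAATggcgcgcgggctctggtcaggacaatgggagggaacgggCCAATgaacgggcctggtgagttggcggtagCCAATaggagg
Hmgb2: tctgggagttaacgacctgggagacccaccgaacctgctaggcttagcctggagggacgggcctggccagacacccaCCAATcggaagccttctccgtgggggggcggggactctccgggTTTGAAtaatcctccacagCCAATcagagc
Hmgb3: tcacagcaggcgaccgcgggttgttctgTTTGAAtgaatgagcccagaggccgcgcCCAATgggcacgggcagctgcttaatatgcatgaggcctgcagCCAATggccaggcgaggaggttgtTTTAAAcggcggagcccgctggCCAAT
Hmgn1: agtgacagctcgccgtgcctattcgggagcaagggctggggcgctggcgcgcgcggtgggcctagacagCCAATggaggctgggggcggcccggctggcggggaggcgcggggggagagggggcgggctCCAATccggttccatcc
Hmgn2: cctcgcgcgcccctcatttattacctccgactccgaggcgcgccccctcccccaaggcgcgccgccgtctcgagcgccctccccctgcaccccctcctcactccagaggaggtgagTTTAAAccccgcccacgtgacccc

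CCAAT occurred 3 times in the windows of Hmgb1 and Hmgb3, 2 times in those of Hmgb2 and Hmgn1 and 0 times in that of Hmgn2. Among 27025 promoter windows of the same length, 25.3% held CCAAT at least once, 6.41% held it 2 or more times and 1.32% held it 3 or more times. TTTGAA was present in Hmgb2, where it began 30 bases before the start site and lay between its CCAAT matches, and in Hmgb3, where it began 122 bases before the start. Of all windows, 9.24% held TTTGAA and 6.79% held TTTAAA, which was present in Hmgb3 and Hmgn2. The E2F-type motifs GGCGGGAA and TTTGGCGC were in none of the 5 windows and in 1.38% and 0.27% of all windows. RefSeq lists a second start for Hmgb1, whose sequence is not shown. These are matches of letters, and no binding was measured.

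Hmgb2, a DNA-bending protein known to be abundant in dividing cells, had the largest mean ratio between G2/M and neuronal cells among the HMGB genes, also when near-identical copies of Hmgb1 were added to that gene. In G2/M cells its level was 524, 554, 2255 and 2459 CPM in tumours 1 to 4. In S-phase cells the 4 levels were 264, 271, 767 and 926, in cluster 1 they were 154, 307, 424 and 493, and in neuronal cells 115, 216, 104 and 252. The lowest G2/M level thus lay above the highest neuronal level, and the lowest S-phase level also did, whereas cluster 1 and neuronal levels overlapped.

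The mean Hmgb2 level was 1448 ± 1053 in G2/M, 557 ± 341 in S, 345 ± 149 in cluster 1 and 172 ± 73.2 in neuronal cells (SD, n = 4 each). The SD spans the library pairs: G2/M cells averaged 539 in tumours 1 and 2 and 2357 in tumours 3 and 4, while neuronal cells averaged 165 and 178. Of 5422 genes with at least 100 UMIs, 8.56% had their lowest G2/M level above their highest neuronal level, and 7.49% had their lowest S level above it. The log2 ratio of G2/M to neuronal cells, with 1 UMI added to each sum, was 2.14, 1.34, 4.34 and 3.27 in tumours 1 to 4, with a mean of 2.77 ± 1.31 (SD, n = 4). Its mean was 1.74 in tumours 1 and 2 and 3.81 in tumours 3 and 4, a difference that was not tested. Hmgb2 was the member that most clearly separated G2/M from S cells, with log2 ratios of 0.94, 0.99, 1.54 and 1.40, higher in 4 of 4 tumours. Of the same 5422 genes, 9.81% were higher in G2/M than in S cells in each of the 4 tumours.

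The share of cells with at least 1 Hmgb2 UMI showed the same order at equal depth. With each cell thinned to 500 UMIs, 18.7%, 22.8%, 59.7% and 67.0% of G2/M cells of tumours 1 to 4 had a UMI of Hmgb2, against 5.84%, 6.55%, 5.68% and 10.8% of neuronal cells. In tumour 3 the exact 95% interval was 50.9 to 68.1% for G2/M and 2.76 to 10.2% for neuronal cells. Without thinning the means were 61.3% of G2/M and 11.5% of neuronal cells. All intervals cover counting error only.

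**Figure D1:**
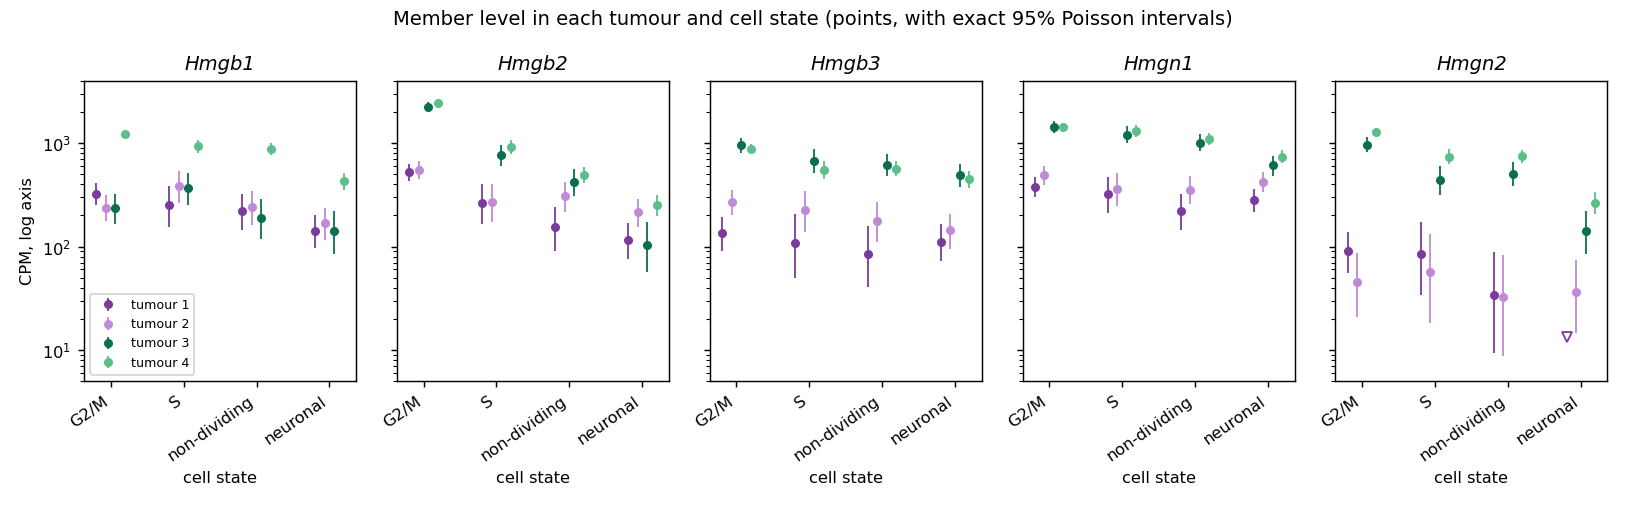
Level of each gene (CPM, UMIs per 1000000, log axis) in G2/M, S, non-dividing (cluster 1) and neuronal cells. Points are tumours 1 to 4 with exact 95% Poisson intervals, and the open triangle is the level that 3 UMIs would give where Hmgn2 had 0. Hmgb2 in G2/M cells of tumours 3 and 4 sits at 2255 and 2459, above every other point.

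Hmgb1, the most studied HMGB protein and also an extracellular alarm signal, shares near-identical sequence with many pseudogenes, and its row held fewer UMIs than the rows of those copies in every tumour. Its own row was 325, 239, 235 and 1235 in G2/M cells of tumours 1 to 4, 252, 384, 367 and 932 in S cells, 223, 242, 189 and 877 in cluster 1, and 142, 169, 141 and 427 in neuronal cells. Tumour 4 stood alone, whereas tumour 3 was level with tumours 1 and 2.

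A search of the GENCODE transcripts (blastn, at least 95% identity over at least 200 bases) found 45 other annotated genes that match the Hmgb1 transcript, 44 of them pseudogenes, and 24 had a row in the tables. In whole tumours Hmgb1 itself had 165, 168, 116 and 1119 UMIs in tumours 1 to 4, and the 24 copies together had 364, 344, 1761 and 2984. The copies thus held 68.8%, 67.2%, 93.8% and 72.7% of the joint UMIs, most of all in tumour 3. The processed pseudogene Gm10075, identical to Hmgb1 over 98.7% of 531 aligned bases, alone had 329, 342, 1008 and 2183 UMIs in barcodes with at least 500 UMIs. UMIs of the gene and of its copies cannot be told apart with certainty in these tables.

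With the copies added, an alternative chosen after seeing the data, the whole-tumour level was 693, 715, 3574 and 3287 CPM, and tumour 3 joined tumour 4. In G2/M cells the joint level was 962, 838, 5369 and 4640, in S cells 780, 734, 4279 and 3367, in cluster 1 it was 762, 799, 3320 and 3024, and in neuronal cells 462, 565, 1604 and 1612. The mean log2 ratio of G2/M to neuronal cells was 0.97 ± 0.47 for the row alone and 1.22 ± 0.52 for the joint count (SD, n = 4 each), higher in G2/M in 4 of 4 tumours by both. The order of G2/M and S cells turned: the row alone gave log2 ratios of 0.32, -0.70, -0.65 and 0.40, a mean of -0.16 ± 0.60, and the joint count gave 0.29, 0.18, 0.33 and 0.46, a mean of 0.31 ± 0.12 (SD, n = 4 each).

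**Figure D2:**
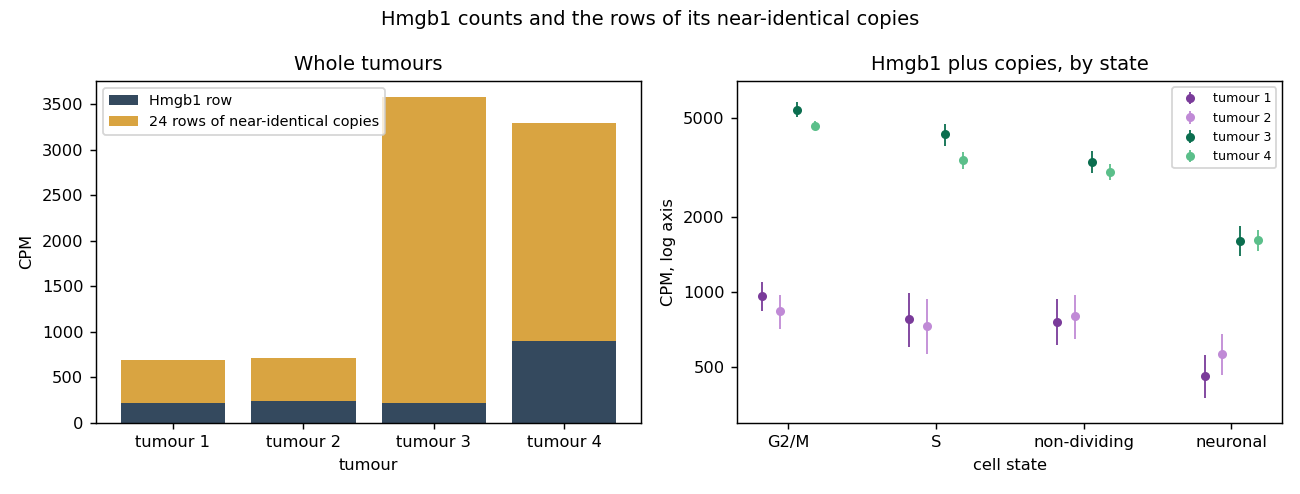
Left, CPM of the Hmgb1 row and of 24 rows of near-identical copies, stacked, in whole tumours 1 to 4. Right, their sum in each state and tumour with exact 95% Poisson intervals (log axis). The copies hold 93.8% of the sum in tumour 3, and the sum in tumours 3 and 4 lies above that in tumours 1 and 2 in every state.

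For the other members the copies were a small part of the count. They held at most 2.10% of the joint UMIs for Hmgb2, 9.16% for Hmgb3, 10.7% for Hmgn1 and 6.91% for Hmgn2 in any tumour. Adding them changed no log2 ratio averaged over the 4 tumours in sign for these 4 genes.

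Hmgb3, a paralog known from stem and progenitor cells, differed less between states than Hmgb2. Its levels in G2/M cells were 136, 269, 951 and 885 CPM in tumours 1 to 4, in S cells 108, 226, 678 and 555, in cluster 1 they were 85.6, 178, 622 and 569, and in neuronal cells 111, 144, 490 and 449. Taken as ratios of means, the pairs of tumours lay further apart within each state than the states did within a pair.

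The mean log2 ratio of G2/M to neuronal cells was 0.77 ± 0.33 (SD, n = 4), with 0.28 in tumour 1 and 0.88, 0.94 and 0.97 in tumours 2 to 4. In tumours 3 and 4 the G2/M, S and cluster 1 levels did not overlap the neuronal levels, and in tumours 1 and 2 they did. The share of all genes without overlap within a pair was not counted, so nothing is read from this. Cluster 1 and neuronal cells, with means of 364 ± 272 and 298 ± 199 (SD, n = 4 each), did not differ beyond the spread of their ratio, 0.18 ± 0.31.

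Hmgn1, a nucleosome-binding protein encoded on mouse chromosome 16, was measured in all states of all tumours. Its G2/M levels were 380, 488, 1440 and 1445 CPM, its S levels 324, 361, 1212 and 1309, its cluster 1 levels 223, 355, 1010 and 1101, and its neuronal levels 280, 426, 609 and 744 in tumours 1 to 4. In tumours 3 and 4 the 3 other states lay above the neuronal cells. In tumours 1 and 2 the neuronal levels overlapped those of each other state. How many of all genes do the same within a pair was not counted, so this is a description only.

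The Hmgn1 log2 ratio of G2/M to neuronal cells was 0.43, 0.19, 1.23 and 0.95, with a mean of 0.70 ± 0.47 (SD, n = 4). Cluster 1 against neuronal cells went opposite ways in the library pairs, at -0.30 and -0.25 in the first pair and 0.73 and 0.56 in the second. The difference between the pairs was not tested. G2/M exceeded S cells by a small and even margin, 0.24 ± 0.11 (SD, n = 4) on the log2 scale, in 4 of 4 tumours.

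Hmgn2, the closest relative of Hmgn1 in the family, had the steepest difference between library pairs. Its levels in G2/M cells were 90.4, 45.7, 971 and 1290 CPM in tumours 1 to 4, in S cells 84.0, 56.4, 445 and 743, in cluster 1 they were 34.2, 32.3, 505 and 747, and in neuronal cells 0, 35.9, 141 and 266. Tumours 1 and 2 rested on few molecules, with 20 and 9 UMIs in G2/M cells against 149 and 582 in tumours 3 and 4.

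In tumours 3 and 4, where counts allow a reading, the Hmgn2 log2 ratios of G2/M to neuronal cells were 2.72 and 2.26 and those of G2/M to S cells 1.1 and 0.79. In tumour 1 no UMI was found in 257 neuronal cells with 225240 UMIs. Against the level that 3 UMIs would give there, 13.3 CPM, the G2/M level of tumour 1 was at least 6.78-fold higher. With tumour 1 set at that bound the mean log2 ratio over the tumours was 2.01 ± 1.16 (SD, n = 4), and without tumour 1 it was 1.76. In tumour 2 the ratio was 0.31 and the exact intervals, 20.9 to 86.8 in G2/M and 14.4 to 74.0 in neuronal cells, overlapped.

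After thinning to 500 UMIs, 42.5% and 42.7% of G2/M cells of tumours 3 and 4 had an Hmgn2 UMI, against 5.11% and 11.5% of neuronal cells. In tumours 1 and 2 the shares were 6.04% and 2.48% of G2/M cells. In tumour 1, 0 of 257 neuronal cells had a UMI, and a count of 0, read as up to 3 cells, allows a share of up to 1.17% of cells with a UMI.

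**Figure D3:**
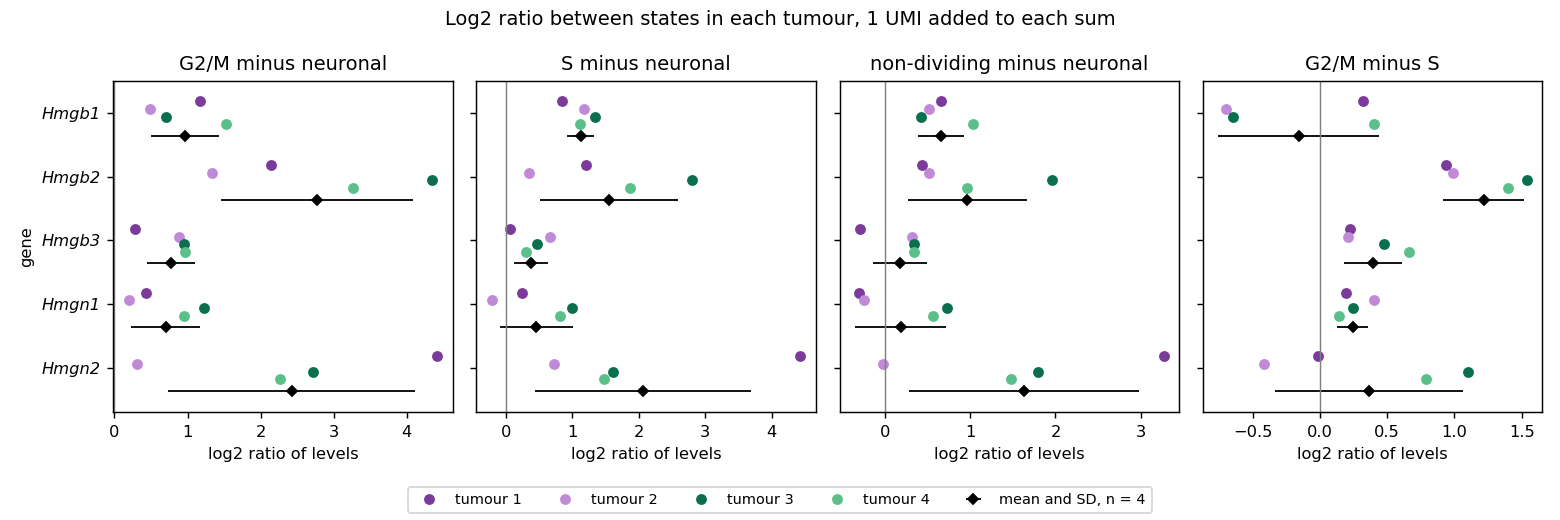
Log2 ratio of levels between 2 states for each gene, 1 UMI added to each sum. Coloured points are tumours 1 to 4, and the diamond and bar are their mean and SD. All 20 points of G2/M minus neuronal cells lie above 0, and Hmgb2 and Hmgn2 reach furthest. The Hmgn2 points of tumour 1 against neuronal cells rest on a neuronal count of 0.

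All 5 genes were higher in G2/M than in neuronal cells in each of 4 tumours. Among the 5422 genes, 21.8% were, and since the genes were chosen on this contrast nothing is read from the count. With 4 tumours a two-sided exact sign-flip test cannot give a p below 0.125.

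The genes differed in how much of the G2/M level remained in neuronal cells, and so did the library pairs. The neuronal level of Hmgb2 was 22.0%, 38.9%, 4.61% and 10.2% of its G2/M level in tumours 1 to 4. For Hmgn2 the share was 0%, 78.6%, 14.5% and 20.6%, with tumours 1 and 2 resting on 0 and 7 neuronal UMIs. For Hmgb2 the share was lower in both of tumours 3 and 4 than in either of the other tumours, a difference that was not tested. Hmgb1, Hmgb3 and Hmgn1 kept more than Hmgb2 in each tumour. Hmgb1 was at 43.7%, 70.9%, 60.1% and 34.6% by its own row and at 48.0%, 67.4%, 29.9% and 34.7% with the copies added, so its share in tumour 3 rests on which rows are counted. Hmgb3 was at 81.9%, 53.4%, 51.5% and 50.7%, and Hmgn1 was at 73.7%, 87.4%, 42.3% and 51.5%.

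The same share was taken for 32 genes of the G2/M list, which defined the state. Summed over the list it was 4.7%, 10.2%, 4.72% and 5.72% in tumours 1 to 4. With tumours 3 and 4 summed, single genes of the list ranged from 0% to 9.36% with a median of 4.55%, and Hmgb2, at 8.44%, lay within that range. In tumours 1 and 2 the list ranged from 3.76% to 19.9% with a median of 9.03%, and Hmgb2, at 30.1%, lay above it. Hmgb1, Hmgb3 and Hmgn1 lay above the list in both pairs. Hmgn2 lay above it at 18.6% in tumours 3 and 4. Its 24% in tumours 1 and 2 rests on 7 neuronal UMIs of tumour 2, since tumour 1 had 0, and gives no rank. The G2/M list itself summed to 847 to 2679 CPM in neuronal cells and 17932 to 29213 in G2/M cells. RNA free in the droplets can give UMIs in cells that do not express a gene, and called one by one from marker UMIs, 62 of the 948 neuronal cells were G2/M and 100 were S. The part of either in the neuronal levels was not tested.

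**Figure D4:**
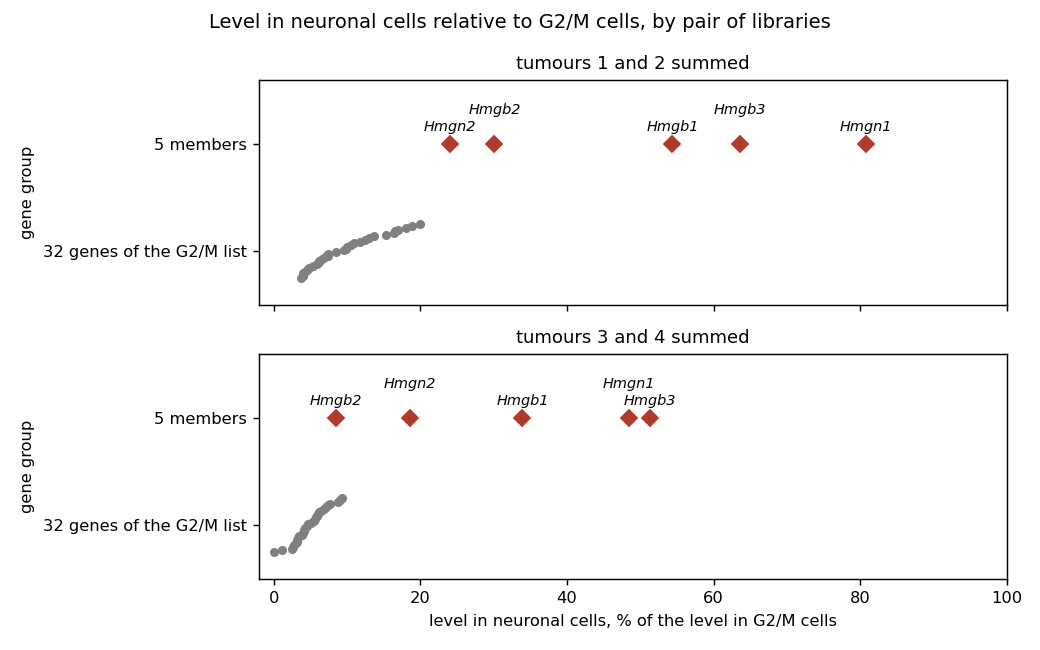
Level in neuronal cells as a percentage of the level in G2/M cells, with tumours 1 and 2 summed (top) and tumours 3 and 4 summed (bottom), for the 5 HMG genes (diamonds) and 32 genes of the G2/M list (grey points, spread vertically for sight only). Hmgb2 lies above the grey points at 30.1% in the top panel and among them at 8.44% in the bottom panel.

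The neuronal state holds a pair of clusters. Cluster 2, led by genes of early differentiation such as Cntn2 and Nhlh1, had Hmgn2 at 164 CPM (exact 95% interval 130 to 205), and cluster 4, led by synaptic genes such as Grin2b and Syt1, at 59.3 (36.7 to 90.7), with the tumours summed. The Hmgn2 log2 ratio of cluster 4 to cluster 2 was -1.56 and -1.16 in tumours 3 and 4, and -0.48 in tumour 2, on 7 neuronal UMIs. In tumour 1 both clusters had 0 Hmgn2 UMIs, so its value of 0.18 comes only from the added UMI and the sizes of the sums. The mean with that value was -0.76 ± 0.77 (SD, n = 4), and nothing is read from it. Hmgb3 went the other way, with 267 (223 to 318) in cluster 2 and 325 (268 to 390) in cluster 4, and a log2 ratio of 0.31 ± 0.19 (SD, n = 4) that was above 0 in 4 of 4 tumours. Hmgb1, Hmgb2 and Hmgn1 had mean log2 ratios of -0.30 ± 0.44, -0.25 ± 0.85 and -0.23 ± 0.39 (SD, n = 4 each), each smaller than its SD. Hmgb2 was at 0.18 and 0.52 in tumours 1 and 2 and at -0.24 and -1.44 in tumours 3 and 4. Hmgb1 and Hmgn1 were each above 0 in 1 of 4 tumours.

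The pair of G2/M clusters differed little in Hmgb2. Hmgb2 was at 1660 CPM in cluster 3, led by Aspm, Cenpf and Plk1, and at 1606 in cluster 6, led by Spc24 and Ndc80, with the tumours summed. By tumour its levels were 556, 586, 2091 and 2579 in cluster 3 and 437, 486, 2502 and 2204 in cluster 6. None of the 5 genes differed between these clusters beyond the spread over tumours, the largest mean log2 ratio being -0.37 ± 0.42 (SD, n = 4) for Hmgb1. That SD spans the library pairs, with -0.81 and -0.64 in tumours 1 and 2 and 0.02 and -0.06 in tumours 3 and 4.

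Cluster 7, with 274 cells, was led by Ttr, Cmya5, Enpp2 and Clu. The astrocyte or radial glia list was the closest to it, with 6 genes among its 50 leading genes, enough for that name by the rule. Since 0 of its 10 leading genes were on that list, it is given no cell type name here. Its Hmgb2 level was 237, 332, 1405 and 1124 CPM in tumours 1 to 4, beside 264, 271, 767 and 926 in the S cluster, and its summed level was 646 (542 to 763). Its G2/M list was at 3639, above the 1390 and 1675 of the neuronal clusters, and its median cell had 607 UMIs. When cells were called one by one from marker UMIs, 78 of the 372 cells in clusters 7, 8, 9 and 11 were G2/M and 89 were S. The part of such cells in the level of cluster 7 was not tested. In 27 endothelial-like and 22 microglia-like cells the 5 genes had 1 to 15 and 0 to 8 UMIs each, too few to rank.

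**Figure D5:**
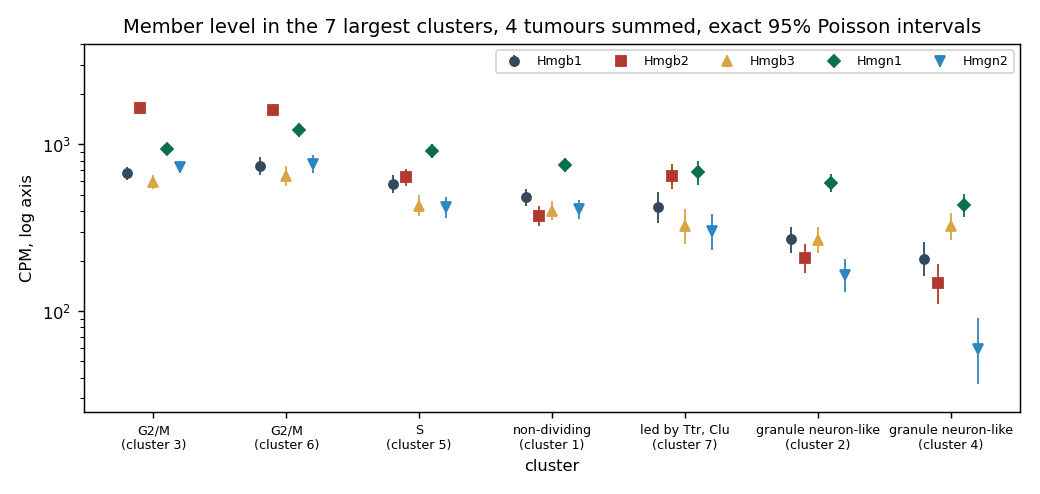
Level of each gene (CPM, UMIs per 1000000, log axis) in the 7 largest clusters with the 4 tumours summed, with exact 95% Poisson intervals. The G2/M and S clusters are at the left and the neuronal clusters at the right. Hmgb2 steps from 1660 and 1606 in the G2/M clusters to 638 in the S cluster, and Hmgn2 from 164 to 59.3 between the neuronal clusters.

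The levels in whole tumours carried the difference between library pairs. Hmgb2 was at 269, 342, 965 and 1246 CPM in tumours 1 to 4, Hmgb3 at 109, 200, 680 and 640, Hmgn1 at 309, 403, 1051 and 1164, and Hmgn2 at 43.3, 34.9, 531 and 820. For these 4 genes both of tumours 3 and 4 were more than 2-fold above both of tumours 1 and 2, as they were for 15.1% of 4176 genes with a mean of at least 50 CPM. The ratio of the pair means was 3.62 for Hmgb2, 4.28 for Hmgb3, 3.11 for Hmgn1 and 17.3 for Hmgn2.

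The length of a gene moved with this difference. With genes split into 4 equal groups by genomic span, in the shortest group, up to 10530 bases, the median log2 ratio of tumours 3 and 4 to tumours 1 and 2 was 1.01, and in the longest group it was -0.52. Hmgb2, Hmgb3, Hmgn1 and Hmgn2 span 4093, 4759, 7112 and 3913 bases and belong to the shortest group, in which 36.7% of genes were more than 2-fold higher in both of tumours 3 and 4. Hmgn3, at 36738 bases, had a log2 ratio of 1.42. Hmgb1 is not placed in a group, since its annotated span of 137788 bases counts from a start far upstream of the one shown above. The part of gene length, of the mitochondrial share or of the library in the levels was not tested. Hmgn5, an X-linked family member of 8871 bases, went the other way, with G2/M levels of 736, 472, 228 and 390 CPM in tumours 1 to 4.

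Across the 16 sums of tumour and state, centred within tumour, the members varied together to different degrees. Hmgb2 and Hmgn1 had the highest correlation, r = 0.91, and Hmgb3 and Hmgn2 the lowest, r = 0.59. The genes most like each member among 4720 others were H2afv, Ccnb2 and Smc4 for Hmgb2 (r of 0.96 each), Zc3h8, Brca1 and Tyms for Hmgb1 (0.92, 0.92 and 0.91), Knstrn, Racgap1 and Myod1 for Hmgb3 (0.93, 0.93 and 0.92), Nudcd2, Ccnb2 and H2afz for Hmgn1 (0.94, 0.92 and 0.92), and Hmgn5, Banf1 and Nedd1 for Hmgn2 (0.93 each). Of these only Smc4 was a clustering feature. The sums share libraries and depth, and the values are a description.

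Other HMG genes were examined as a list of 21, of which 14 passed the filter on low counts. In edgeR's quasi-likelihood test 6 of the 14 were higher in G2/M than in neuronal cells and 0 lower, beside 20.2% of all 4725 genes called higher and 17.5% lower at an adjusted p under 0.05 (DESeq2 called 5 of the 14). The list's median log2 fold was 0.31 against 0.05 over all genes. Hmgn5, another nucleosome-binding HMGN protein, averaged 457 ± 212 CPM in G2/M, 380 ± 189 in S, 264 ± 87.4 in cluster 1 and 136 ± 74.2 in neuronal cells (SD, n = 4 each). Its log2 fold between G2/M and neuronal cells was 1.79 (SE 0.18, edgeR adjusted p = 1.15e-13), with the same sign in 4 of 4 tumours, at 1.59 in tumours 1 and 2 and 1.87 in the other pair.

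Of the same list, Hmga1, an AT-hook protein, had a log2 fold of 1.57 (SE 0.45, edgeR adjusted p = 0.00388) on levels of 51.8 ± 35.8 and 16.7 ± 8.40 CPM (SD, n = 4 each). Hmgn3 had 0.95, with the sign in 3 of 4 tumours, and its size came mostly from tumours 3 and 4, at 1.34 against 0.25 in the other pair. Hmg20b had 0.76. Without tumour 4 the calls of Hmga1 and Hmgn3 were lost (edgeR adjusted p = 0.0698 and 0.0559), with folds of 1.57 and 0.76. In S against neuronal cells 6 of the 14 were higher and 0 lower, beside 17.5% and 13.7% of all genes. In cluster 1 against neuronal cells 5 were higher and 0 lower, beside 15.6% and 12.3%. DESeq2 called 3 of the 14 in each of these comparisons. Between G2/M and S cells edgeR called 0 of the 14, beside 3.05% of all genes called higher and 0.868% called lower, and 1 of the 14 had an unadjusted p under 0.05 (DESeq2 called 0). Since the states come from expression in these very cells, each adjusted p is descriptive.

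Of 17 partners and receptors of HMG proteins, 13 were tested. In S against neuronal cells 11 of the 13 were higher and 1 lower, beside 17.5% and 13.7% of all genes, and DESeq2 called 11. In cluster 1 against neuronal cells 12 were higher and 0 lower, beside 15.6% and 12.3%, whereas DESeq2 called 7. In G2/M against neuronal cells 7 were higher and 1 lower, beside 20.2% and 17.5%, with a median log2 fold of 0.72 against 0.05 over all genes, and DESeq2 called 8. Top2a, the topoisomerase of dividing cells and itself a G2/M marker, averaged 3249 ± 719 CPM in G2/M and 213 ± 96.4 in neuronal cells (SD, n = 4 each). Its paralog Top2b, known from postmitotic neurons, went the other way, at 522 ± 218 and 683 ± 245, a log2 fold of -0.40 (SE 0.13, edgeR adjusted p = 0.0122). The Top2b call was lost in 7 of 20 alternatives, among them that without tumour 4 (edgeR adjusted p = 0.108).

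The acidic histone chaperones Anp32e and Anp32b, relatives of the HMGB2-binding SET complex protein Anp32a, had log2 folds of 1.79 and 1.77 between G2/M and neuronal cells, both with the same sign in 4 of 4 tumours. Anp32e averaged 1319 ± 259 in G2/M and 784 ± 138 in S cells (SD, n = 4 each) and was called between them as well, at 0.79 (SE 0.13, edgeR adjusted p = 2.46e-06). Cxcr4, the receptor for the HMGB1 and Cxcl12 heterocomplex, had a log2 fold of 1.90 on levels of 5.08 to 119.7 CPM in G2/M and 0 to 32.8 CPM in neuronal cells, with the sign in 3 of 4 tumours.

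Linker histones and histone variants, the chromatin components that HMGN proteins compete with or act beside, made a list of 15 with 11 tested. In G2/M against neuronal cells 8 were higher and 1 lower, beside 20.2% and 17.5% of all genes, with a median log2 fold of 1.44 against 0.05 over all genes, and DESeq2 called 8. Cenpa, the centromeric histone, averaged 331 ± 148 CPM in G2/M, 57.9 ± 25.9 in S and 24.6 ± 11.7 in neuronal cells, and Hist1h1b, a replication-dependent linker histone, 815 ± 523, 577 ± 321 and 84.7 ± 82.1 (SD, n = 4 each). The log2 fold of Hist1h1b was 2.32 in tumours 1 and 2 and 4.40 in tumours 3 and 4, and that of Cenpa 2.86 and 4.07. H2afx and H2afz had log2 folds of 2.82 and 1.86, at 1.95 and 1.19 in the first pair and 2.96 and 2.18 in the second. All of these were thus larger in tumours 3 and 4, a difference that was not tested. H2afy2, a macroH2A variant linked to silent chromatin, was lower in G2/M, with a log2 fold of -0.73 (SE 0.19, edgeR adjusted p = 0.00119). The H2afy2 call was lost in 3 of 20 alternatives, among them tumours 1 and 2 alone. In S against neuronal cells 7 of the 11 were higher and 2 lower, beside 17.5% and 13.7% of all genes (DESeq2 called 7), and in cluster 1 against neuronal cells 4 were higher and 2 lower, beside 15.6% and 12.3% (DESeq2 called 3). H3f3b, which encodes the replication-independent H3.3, was lower in S than in neuronal cells at -0.43. Between G2/M and S cells 6 of the 11 were higher and 0 lower, beside 3.05% and 0.868% of all genes, and DESeq2 called 4.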

How the data were processed

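The deposited tables hold whole-number UMI counts per gene and barcode, not normalized, per the labels' protocols and the values themselves. Alignment with STAR to mm10 is named in the submitters' processing notes, and the counting tool is not given in the sources used here. A further 6 tables with 11203 cell columns have cell names that fit no labelled sample and were left out. From the counts, barcodes with at least 500 UMIs were kept in each of 4 tumours (1 group, numbered as the labels number them). Scrublet removed 14 doublets (scanpy 1.11.5). The 2000 most variable genes, without HMG genes, the tested lists, mitochondrial, ribosomal-protein, Gm, sex-linked and Cre features, were scaled within library, reduced to 30 principal components and clustered with Leiden at resolution 1. Clusters were named by at least 4 markers among their 50 leading genes. Cluster 7 met this rule for the astrocyte or radial glia list and counted as named, though no cell type name is used for it above. Under the first rule only an unnamed cluster of 27 cells, with 0 in tumour 3, counted as non-dividing. The rule was therefore widened after seeing the data to unnamed clusters with the G2/M list below the mean of all cells, the S-phase list up to 1.1 times it, and at least 5 cells per tumour.

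Counts were summed per tumour and state and fitted with edgeR 4.0.16 (R 4.3.3; filterByExpr, TMM, quasi-likelihood test, Benjamini-Hochberg at 0.05 over 4725 genes) with the tumour as a block, since both sums of a tumour come from 1 library. Their deviations from the state means correlated at 0.56 to 0.73 within tumours. On simulated counts for G2/M against neuronal cells (4763 genes) the step recovered 100% of 4-fold changes, 66% of 2-fold rises and 44% of 2-fold falls, with 1.27% false calls. Beyond the labels nothing says how the samples were drawn, so p-values speak for these libraries alone. With the tumour as a block, they measure how the state differences vary between the libraries. Member levels carry Poisson and shares Clopper-Pearson 95% intervals, and log2 ratios add 1 UMI to each sum. Genes were named by rule: the 5 members, of the genes of each list called in at least 1 comparison, up to 4 per direction with the largest fold between G2/M and neuronal cells, and the 3 genes most correlated with each member on log2 CPM (prior count 2). The members, lists and rules were chosen with earlier results of these data known. Alternatives changed scaling, filter, block, tool (DESeq2 1.42.0), libraries, mitochondrial limit, depth, doublets, clustering and state rule. Positions come from GENCODE M21 (GRCm38).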

Additional observations from a re-analysis of the deposited data

Results flagged for a closer look

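3 of the levels of Hmgb1 in tumour 4 stood apart from the other tumours by Dixon's criterion for 4 samples: 1235 CPM in G2/M cells, 877.3 in cluster 1 (the non-dividing state) and 426.7 in neuronal cells, with a gap to the nearest tumour of 0.909, 0.923 and 0.901 of the whole range. With the near-identical copies added, tumour 3 was as high as tumour 4 in each of these states. For Hmgb3 in tumour 1 the log2 ratio of G2/M to neuronal cells was 0.279 and that of cluster 1 to neuronal cells -0.2941, below the other tumours by 0.871 and 0.962 of the range, on 25 neuronal UMIs. Of 40 sets of 4 values examined, 5 stood apart. Chance gives about 1 in 20 for independent sets, but these share libraries and neuronal sums, so nothing is read from the count.

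The log2 ratio of cluster 1 to neuronal cells for Hmgn1 was -0.2724 on average in tumours 1 and 2 and 0.64 in tumours 3 and 4, with both tumours of a pair on the same side of 0. The ratio of G2/M to S cells for Hmgn2 was -0.2158 in tumours 1 and 2, on 5 to 20 UMIs per sum, and 0.94 in tumours 3 and 4. Neither difference between the pairs was tested.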

How the results depend on the processing

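The direction of G2/M against neuronal cells held for the 5 genes under every alternative, with mean log2 ratios of 0.75 to 1.22 for Hmgb1, 1.74 to 3.81 for Hmgb2, 0.43 to 1.03 for Hmgb3, 0.31 to 1.09 for Hmgn1 and 0.73 to 3.13 for Hmgn2. The Hmgn2 values that include tumour 1 rest on its 0 neuronal UMIs, the highest being that without tumour 2. With tumour 1 set at 3 neuronal UMIs the mean was 2.01, and without tumour 1 it was 1.76. Of 90 such values, 88 moved by less than 1 SD between tumours. The others came without centring within library, at 0.43 for Hmgb3 and 0.73 for Hmgn2, where tumour 1 kept few neuronal cells. No S-phase state was found at Leiden resolution 0.5 or without centring, so those values are missing.

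Reversals were in other contrasts. Hmgb1 in G2/M against S cells was -0.16 and became 0.044 with at least 1000 UMIs per cell, 0.078 with states called per cell, 0.31 with copies added, and lay between -0.34 and 0.024 with 1 tumour left out (above 0 without tumour 2 or 3). With states called per cell, cluster 1's counterpart against neuronal cells gave -0.16 for Hmgb2 and -0.35 for Hmgb3. In tumours 1 and 2 alone Hmgn1 gave -0.27 in cluster 1 against neuronal cells and Hmgn2 -0.22 in G2/M against S cells. The cause was not tested.

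Genes called in G2/M against neuronal, S against neuronal, cluster 1 against neuronal and G2/M against S cells numbered 1782, 1472, 1319 and 185. Without the replicate block they were 540, 466, 253 and 30, in tumours 1 and 2 alone 1027, 682, 610 and 99, and with cells thinned to 500 UMIs 933, 732, 705 and 99. With at least 1000 UMIs per cell the first 3 were 689, 831 and 553 (2349 genes tested). Cluster 1 against neuronal cells gave 855 at a mitochondrial share of at most 10% and 788 with states called per cell, and G2/M against neuronal cells gave 771 without centring. Leaving out 1 tumour gave 1147 to 1741, 897 to 1440, 795 to 1255 and 113 to 189 calls, each lowest without tumour 4, the deepest. Low counts limit Hmgn2 in tumours 1 and 2. Of 16 called folds of named list genes, 9 lost the call without the replicate block, and 7 were called in all alternatives that tested them. Calls were also lost in tumours 1 and 2 alone for Hmgn3, Top2b, H2afy2 and H3f3b (edgeR adjusted p of 0.777, 0.174, 0.129 and 0.141), and without tumour 4 for Hmga1, Hmgn3 and Top2b. States called per cell lost those of Hmgn3, Top2b and H3f3b, and clustering without centring those of Hmg20b, Top2b and H2afy2. Thinning lost the call of Hmgn3. At least 1000 UMIs per cell, or cluster 3 alone as G2/M, lost that of Top2b. No fold changed sign.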
